A study of Mus musculus with 12 samples.

Results

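Testes of mice dosed with 200 mg/kg per day of blueberry extract were set against testes of mice that received saline, and 6 of the study's 12 libraries, chosen by their titles, make up the comparison: 3 at 200 mg/kg and 3 with saline. All mice were wild-type males of the outbred ICR stock, 8 months old at the start and 9 months old when the testes were taken, and both groups were dosed by daily gavage, which places a liquid in the stomach. The study asked whether the extract acts on inflammation and on the sperm motility that declines with age. The composition of the extract and the length of dosing are not stated in the sources at hand. The study's 2 other groups, given 50 and 100 mg/kg, had 3 libraries each and enter here to show where the highest dose differed from them. The labels do not say whether the 3 libraries of a group came from separate animals, so p-values measure only the spread between libraries, which may be technical.

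The testis makes sperm in seminiferous tubules, where germ cells divide, pass through meiosis and reshape into spermatids while Sertoli cells nurse them. Between the tubules lie Leydig cells, which turn cholesterol into testosterone, together with fibroblasts, vessels and resident macrophages. Blueberry extract is rich in anthocyanins and other polyphenols, which are studied for their effects on oxidative stress and inflammation.

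Library totals ran from 14382378 to 18027090 counts in the 6 libraries, and 15682 of 21959 genes had enough counts over all groups to be tested. Levels are given as CPM, counts scaled to the library total with a correction between libraries. The tissue label fitted the markers of testis: the sperm protamine gene Prm1 stood at 3078, 2945 and 3049 CPM with saline and 2845, 2542 and 2920.3 CPM at 200 mg/kg, and the germ-cell lactate dehydrogenase gene Ldhc at 4264, 4292 and 4222 CPM and 4349.9, 4405 and 4321 CPM. Within the 2 groups, pairs of libraries differed by 1.57 to 2.36 in chi-square per degree of freedom, and the first principal component of the 6 libraries, with 53.6% of their variance, set the 3 treated libraries apart from the 3 controls. Among the other groups, library 3 at 100 mg/kg stood apart from its own group (12.2 and 8.09 in chi-square per degree of freedom).

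At 200 mg/kg many genes shifted a little and few shifted a lot. Of the 15682 genes tested, 2914 (18.6%) passed at an adjusted p under 0.05, 1612 (10.3%) higher and 1302 (8.3%) lower than with saline. Adjusted p-values throughout come from edgeR's quasi-likelihood test with Benjamini-Hochberg adjustment over all genes tested. The median size of a called change was 1.28-fold, and 2124 of the called genes, 72.9%, changed by less than 1.5-fold. Changes of at least 2-fold were called in 350 genes (2.23%), of which 279 (1.78%) were higher and 71 (0.453%) lower, and 78 genes reached 4-fold, 53 of them averaging under 1 CPM. The 3 treated libraries did not overlap the 3 controls in 2841 of the called genes (18.1% of all tested) and in 6145 genes overall (39.2%). Leaving out saline library 3 took the count of called genes to 1942 and leaving out 200 mg/kg library 1 took it to 1935, while a fit of these 2 groups alone called 4490.

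**Figure D1:**
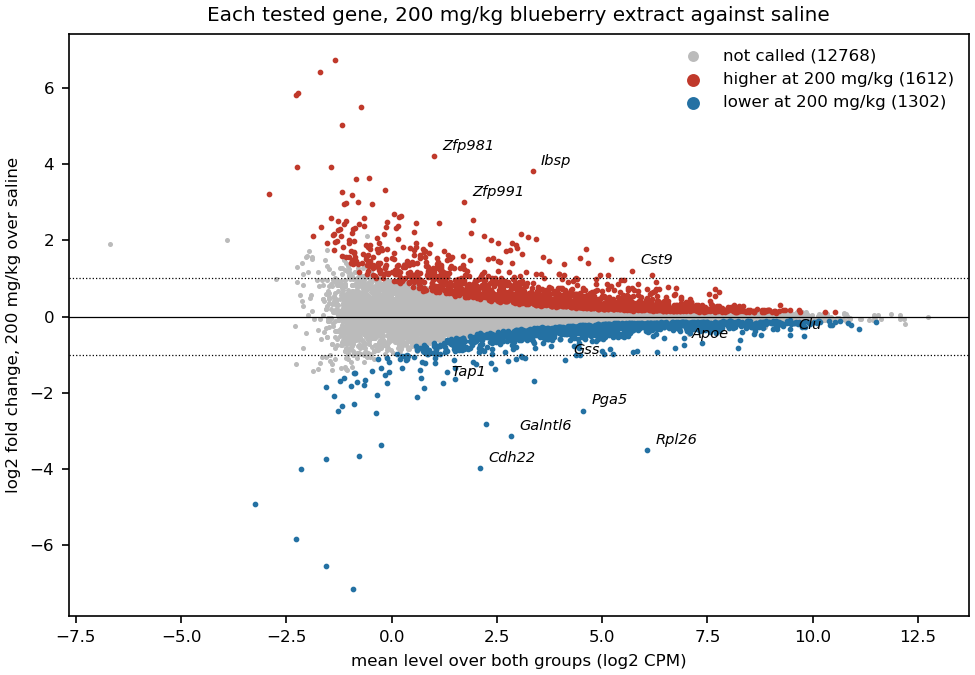
Log2 fold change of each of the 15682 tested genes at 200 mg/kg over saline (vertical axis) against its mean level over both groups in log2 CPM (horizontal axis). Red points are the 1612 genes called higher, blue the 1302 called lower and grey the rest, and dotted lines mark a 2-fold change. Most called genes lie between the dotted lines, and the widest changes sit at low levels on the left.

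The largest rises among genes averaging at least 1 CPM were in genes with little signal in the controls. Ibsp (ENSMUSG00000029306, chr5:104299171-104311469), which encodes bone sialoprotein of mineralised matrix, was read at 1.16, 1.07 and 1.78 CPM in the saline libraries and at 19.9, 18.6 and 18.5 CPM at 200 mg/kg. The lowest treated library lay far above the highest control, a 14.2-fold rise (log2 fold change 3.83 ± 0.16, adjusted p = 2.41e-14). Bmp3, a bone morphogenetic protein gene, stood at 0.674, 1.46 and 1.19 CPM with saline and 5.49, 7.38 and 6.57 CPM at 200 mg/kg. Its groups did not overlap either and the rise was 5.74-fold (2.52 ± 0.25, adjusted p = 7.82e-08). The zinc finger gene Zfp981 (ENSMUSG00000056300, chr4:146502027-146539395) went from 0.245, 0.0562 and 0.297 CPM to 4.1, 3.83 and 3.42 CPM, close to silent in all 3 controls and at a similar low level in all 3 treated libraries. That rise was 18.6-fold (4.22 ± 0.35, adjusted p = 3.53e-09), and Zfp991 on the same chromosome rose 8.05-fold and Zfp820 on chromosome 17 rose 4.07-fold. Zinc finger genes have close copies, so their reads may be shared between family members.

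The other genes among the 15 largest rises have varied roles. They included Casq1, the calcium-binding calsequestrin of muscle (6.22-fold), and Cavin4, a coat protein of muscle caveolae (4.62-fold). Also among them were Rag1, which recombines antigen receptor genes (4.57-fold), and Cd8b1, a chain of the CD8 co-receptor (5.17-fold). The rest included the protocadherin gene Pcdh9 (6.07-fold), Ceacam10 of the carcinoembryonic antigen family (4.36-fold) and the olfactory receptor genes Olfr873 (6.41-fold) and Olfr16 (5.49-fold). The kinase-anchoring gene Akap2 rose 5.04-fold and Tgfbr3l rose 4.08-fold. Their adjusted p was lowest for Rag1, at 6.38e-09, and highest for Tgfbr3l, at 0.000537. Olfactory receptor genes have close copies, and Rag1, Akap2 and Tgfbr3l each overlap another gene of the table, and whether reads were counted by strand is not stated in the sources at hand.

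Falls of at least 2-fold were fewer than rises. Rpl26 (ENSMUSG00000060938, chr11:68901583-68906989), a protein of the large ribosomal subunit, stood at 122, 123 and 124 CPM with saline and at 10.1, 10.2 and 12.2 CPM at 200 mg/kg. All 3 treated libraries held about the same low value and the fall was 11.3-fold (-3.50 ± 0.078, adjusted p = 1.95e-20). Rpl26 also has near-identical copies in the genome, so how its reads were assigned is uncertain. Cdh22 (ENSMUSG00000053166, chr2:165111507-165234853), a cadherin gene, fell 15.6-fold, from 7.17, 8.88 and 8.02 CPM to 0.347, 0.835 and 0.393 CPM (adjusted p = 1.11e-11). Galntl6, a glycosyltransferase family gene that overlaps a second gene of the table, fell 8.76-fold, from 12.9, 11.2 and 14.3 CPM to 1.21, 1.32 and 1.8 CPM (adjusted p = 7.6e-13). Pga5 (ENSMUSG00000024738, chr19:10668956-10678071), which encodes pepsinogen A, the precursor of a gastric protease, was at 35.9, 37.9 and 45.3 CPM in the controls and 8.03, 6.19 and 7.13 CPM in the treated libraries. The treated libraries again lay close together, 5.54-fold below the controls (-2.47 ± 0.11, adjusted p = 6.63e-14).

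Further falls at lower levels included 2 more zinc finger genes, Zfp951 (7.11-fold) and Zfp984 (3.1-fold), and genes of macrophages and complement: Gpnmb, a lysosomal glycoprotein of phagocytes (4.31-fold), C1rb, a copy of the complement protease C1r (3.67-fold), and Rab7b, a small GTPase of late endosomes (2.62-fold). Aldh1a7, an aldehyde dehydrogenase with a close copy in Aldh1a1, fell 3.24-fold, the water channel gene Aqp2 2.58-fold, the lipocalin gene Apod 2.55-fold and the seminal vesicle gene Svs5 3.05-fold. Lhfpl3 fell 2.74-fold. Adjusted p-values ran from 4.83e-10 for Aldh1a7 to 0.00466 for Rab7b.

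**Figure D2:**
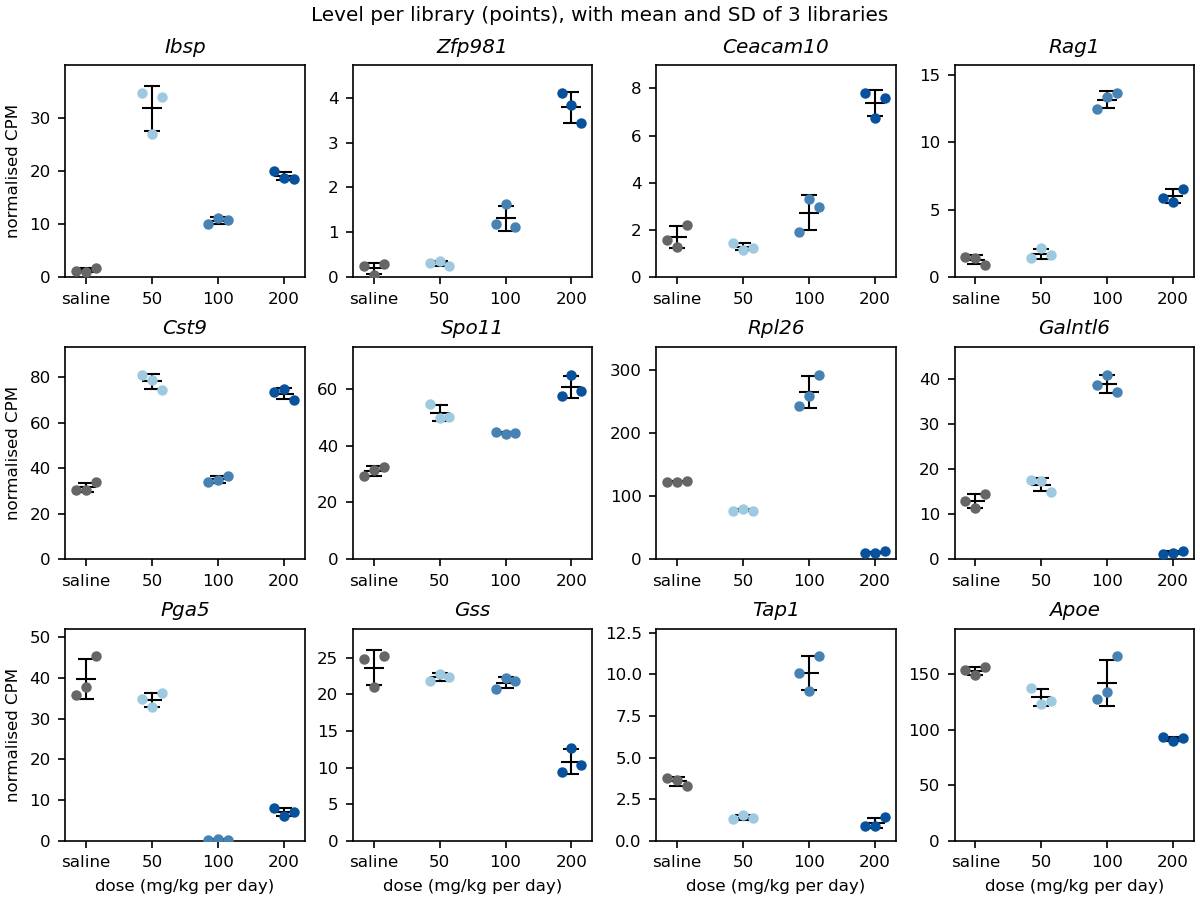
Normalised CPM (vertical axis) of 12 genes in each of the 12 libraries (points) by dose in mg/kg per day (horizontal axis), with the mean and SD of 3 libraries in black. Ibsp stands at about the same low level in the 3 saline libraries and above 18 CPM in the 3 libraries at 200 mg/kg, while Rpl26, Galntl6 and Gss are lowest at 200 mg/kg.

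Among genes averaging at least 100 CPM the largest shifts stayed under 2-fold. Sycp1, which forms the zipper between paired chromosomes in meiosis, was at 217, 196 and 199 CPM with saline and 122, 133 and 124 CPM at 200 mg/kg. All treated libraries lay below all controls, a fall of 1.62-fold (adjusted p = 1.68e-09). Apoe, the lipid carrier apolipoprotein E, fell 1.67-fold from 154, 149 and 156 CPM to 93.4, 89.5 and 92.3 CPM (adjusted p = 1.23e-07), and Ptgds, which makes prostaglandin D2, fell 1.53-fold (adjusted p = 4.31e-07). Ccdc57 fell 1.76-fold and Fnbp1l, which links membranes to actin, 1.48-fold. The abundant genes that rose most were Ehbp1 (1.68-fold), the actin capping gene Capza1 (1.65-fold), the RNA-binding genes Hnrnph1 (1.56-fold) and Ddx17 (1.51-fold), and Cnbd2, a cyclic nucleotide-binding protein of sperm (1.5-fold). Ehbp1, for one, went from 81.1, 81.9 and 79 CPM to 137, 134 and 136 CPM, with no overlap. For these 10 genes adjusted p ran from 5.93e-10 for Capza1 to 4.31e-07 for Ptgds. Capza1, Ddx17 and Cnbd2 each overlap another gene of the table.

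Genes of Sertoli cells were lower far more often than higher. Of 30 tested markers, 13 fell and 1 rose, where 8.3% and 10.3% of all genes did, and the median log2 fold change was -0.27 against -0.0013 over all genes. Clu, the secreted chaperone clusterin, was at 819.6, 821 and 834 CPM with saline and 579, 588 and 589 CPM at 200 mg/kg, without overlap, a change of -0.49 ± 0.043 on the log2 scale (adjusted p = 7.45e-09). Ctsl, a lysosomal protease that Sertoli cells secrete, changed by -0.40 ± 0.038 and Inha, the alpha subunit of the hormone inhibin, by -0.52 ± 0.070. The tight junction gene Cldn11 changed by -0.30 ± 0.055 (adjusted p = 0.000379), the homeobox gene Rhox5 by -0.48 ± 0.10 and Fshr, the receptor for follicle-stimulating hormone, by -0.65 ± 0.19. The single rise was in the cystatin gene Cst9 (ENSMUSG00000027445, chr2:148835147-148838738), from 30.5, 30.4 and 34 CPM to 73.5, 75 and 70.2 CPM, 2.3-fold (adjusted p = 7.89e-13). Summed over the list, the level was 1972 to 2012 CPM in the saline libraries and 1579 to 1607 CPM at 200 mg/kg. In bulk tissue, fewer cells of a type and less RNA per cell cannot be told apart, here and for each cell type below. Fshr lost its call without saline library 2 or treated library 1 or 3 (adjusted p = 0.0591 to 0.0706, and 0.00301 to 0.0706 over its 22 alternatives).

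Steroid synthesis in Leydig cells was mixed and the shifts were small. Of 20 tested genes, 6 fell and 1, the electron carrier gene Fdxr, rose, 35% against 18.6% of all genes. The median log2 fold change was -0.05. Lhcgr, the receptor for luteinising hormone, fell most, from 26.7, 24.5 and 25.5 CPM to 14.6, 14.96 and 15.2 CPM (1.71-fold, adjusted p = 2.5e-07). Cyp11a1, which makes the first cut in the cholesterol side chain, fell by 1.23-fold, from 146, 149 and 145 CPM to 114, 125 and 118 CPM (adjusted p = 0.000366). Star, which carries cholesterol into mitochondria, changed by -0.17 ± 0.049 (adjusted p = 0.0161) and Cyp17a1, which makes androgen precursors, by -0.13 ± 0.042 (adjusted p = 0.0305). Hsd17b3, which makes testosterone, was at 84.4, 83.6 and 80.7 CPM and 94.8, 84.8 and 86.2 CPM and did not pass (0.10 ± 0.058, adjusted p = 0.269). Star lost its call without saline library 3 or treated library 1 or 2 (adjusted p = 0.0504 to 0.0873, and 0.000215 to 0.0873 over its 22 alternatives). Cyp17a1 lost its call without saline library 1 or 2 or treated library 1, 2 or 3 or on library size alone (adjusted p = 0.0543 to 0.138, and 3.86e-05 to 0.138 over its 22 alternatives). Falls numbered 2 without treated library 1 or 2.

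Cholesterol synthesis supplies the same pathway, and 8 of its 25 genes fell, 32% against 18.6% of all genes called. The median log2 fold change was -0.13. Msmo1, a sterol demethylase, was at 35, 35.6 and 36.2 CPM with saline and 28.1, 28.7 and 30.8 CPM at 200 mg/kg (-0.28 ± 0.067, adjusted p = 0.00401). Ebp, a sterol isomerase, changed by -0.45 ± 0.11 (adjusted p = 0.00686), and Srebf2, the transcription factor that drives the pathway, by -0.21 ± 0.060 (adjusted p = 0.0179). Ebp lost its call without saline library 3 (adjusted p = 0.0575, and 0.000145 to 0.0575 over its 22 alternatives). Srebf2 lost its call without saline library 2 or treated library 2 (adjusted p = 0.0774 to 0.0843, and 0.00301 to 0.0843 over its 22 alternatives). The falls numbered 2 without saline library 2 or 3 or treated library 2 and 4 without treated library 1 or 3.

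Connective tissue genes also held falls, and vessel genes gave no call. In the list of fibroblasts and extracellular matrix 6 of 23 genes fell, 26.1% against 18.6% of all genes called (median -0.15). Ogn, the small proteoglycan osteoglycin, stood at 55.4, 55.9 and 51.5 CPM with saline and 37, 40.3 and 34.4 CPM at 200 mg/kg (1.46-fold, adjusted p = 1.45e-05). Sparc, a matrix protein that binds collagen, changed by -0.29 ± 0.042 (adjusted p = 2.93e-05) and the proteoglycan genes Dcn and Bgn by -0.37 ± 0.056 and -0.53 ± 0.099. Ogn overlaps another gene of the table. The summed level of the list was 609 to 620.0 CPM in the saline libraries and 508 to 521 CPM at 200 mg/kg. Of 12 genes of peritubular myoid cells and smooth muscle, 1 fell, 8.33% against 18.6% of all genes called: the actin gene Acta2 (-0.31 ± 0.080, adjusted p = 0.0075). Of 15 endothelial markers, edgeR called 0, with 3 at an unadjusted p under 0.05 (1 higher and 2 lower), and DESeq2 and limma voom also called 0.

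Macrophage genes were lower in part. Of 21 tested markers, 8 fell and 2 rose, 47.6% against 18.6% of all genes, with a median log2 fold change of -0.46. Lyz2, the lysozyme of phagocytes, was at 38.6, 38.3 and 40.4 CPM with saline and 27.1, 23.7 and 26.6 CPM at 200 mg/kg, without overlap (1.51-fold lower, adjusted p = 1.06e-05). Csf1r, the receptor that keeps macrophages alive, changed by -0.63 ± 0.13 (adjusted p = 0.000906), the lysosomal protease gene Ctss by -0.70 ± 0.14 (adjusted p = 0.00104) and the lysosomal membrane gene Cd68 by -0.74 ± 0.19 (adjusted p = 0.0086). Against these, the antibody receptor gene Fcgr3 rose 1.47-fold (adjusted p = 0.00032) and Aif1 rose 1.11-fold (adjusted p = 0.0171). The surface marker Adgre1, known as F4/80, was at 3.12, 3.15 and 3.56 CPM and 3.64, 2.92 and 2.64 CPM and did not pass (-0.09 ± 0.18, adjusted p = 0.767). The summed level of the list overlapped, at 518 to 542 CPM in the saline libraries and 525 to 537 CPM at 200 mg/kg, and Aif1 alone, at 326, 338 and 345 CPM with saline, made up most of it. Cd68 lost its call without saline library 2 or treated library 1 (adjusted p = 0.0547 to 0.0698, and 0.000894 to 0.0698 over its 22 alternatives). The falls then numbered 4 without treated library 1 and 5 without saline library 2 or treated library 3.

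Complement genes, which macrophages, fibroblasts and other cells make, followed the same direction, with 8 of 22 lower and 1, the regulator gene Cd46, higher (median -0.21). These calls were 40.9% of the list, against 18.6% of all genes. C4b was at 29.2, 30.1 and 27.9 CPM with saline and 18.9, 18.9 and 20.2 CPM at 200 mg/kg (1.5-fold lower, adjusted p = 5.67e-06). C3, the central component of the cascade, fell 1.82-fold, from 9.01, 9.61 and 9.86 CPM to 5.61, 5.71 and 4.43 CPM (adjusted p = 0.00011). The inhibitor gene Serping1 changed by -0.53 ± 0.082, so that activators and a regulator of the cascade were among the genes that fell. The 3 chains of C1q, which are also in the macrophage list, changed by -0.46 ± 0.13 (C1qa), -0.40 ± 0.12 (C1qb) and -0.50 ± 0.17 (C1qc). C1qa lost its call without saline library 2 or treated library 3 (adjusted p = 0.0709 to 0.0897, and 0.000822 to 0.0897 over its 22 alternatives). C1qb lost its call without saline library 3 or treated library 1 or 3 (adjusted p = 0.0765 to 0.185, and 0.0036 to 0.185 over its 22 alternatives). C1qc lost its call without saline library 2 or 3, library 3 at 50 mg/kg, library 2 at 100 mg/kg or treated library 1 or 3 (adjusted p = 0.0503 to 0.212, and 0.00261 to 0.212 over its 22 alternatives). The count of falls was 5 without treated library 3.

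Antigen presentation genes display peptides to T cells. Of 17 tested genes 8 fell, 2 rose and the other 7 did not pass, so 58.8% were called against 18.6% of all genes. The median was -0.47 on the log2 scale. The summed level was 225 to 235 CPM in the saline libraries and 189.8 to 193 CPM at 200 mg/kg. The largest fall was in Tap1 (ENSMUSG00000037321, chr17:34187553-34197225), a subunit of the transporter that moves peptides to class I molecules, from 3.8, 3.65 and 3.27 CPM to 0.867, 0.905 and 1.4 CPM (3.32-fold, adjusted p = 3.49e-06). Tap2, the other subunit, fell 2.1-fold (adjusted p = 0.0094), and Psmb9, an inducible proteasome subunit, 2.18-fold (adjusted p = 0.0336). The class I gene H2-D1 changed by -0.47 ± 0.084 (adjusted p = 0.000313) and its partner chain B2m by -0.40 ± 0.089 (adjusted p = 0.00237). For class II, H2-Ab1 changed by -0.58 ± 0.19 and the invariant chain gene Cd74 by -0.74 ± 0.23. The 2 rises were in H2-Q4 (0.85 ± 0.22) and in Nlrc5, the activator of class I genes, which was at 3.31, 2.25 and 2.97 CPM with saline and 6.24, 5.15 and 6.79 CPM at 200 mg/kg (2.15-fold, adjusted p = 3.71e-05). Histocompatibility genes have close copies, and Tap1 and Psmb9, like B2m and a neighbour, overlap in the annotation. Tap2 lost its call without treated library 3 (adjusted p = 0.0608, and 0.00293 to 0.0608 over its 22 alternatives). Psmb9 lost its call without saline library 2 or 3 or treated library 1 or 2 (adjusted p = 0.0829 to 0.185, and 0.00883 to 0.185 over its 22 alternatives). H2-Ab1 lost its call without saline library 2 or treated library 1 or 2 (adjusted p = 0.109 to 0.212, and 0.016 to 0.212 over its 22 alternatives). Cd74 lost its call without saline library 1 or 3 or treated library 1 or 2 (adjusted p = 0.0652 to 0.138, and 0.00379 to 0.138 over its 22 alternatives). H2-Q4 lost its call without treated library 3 (adjusted p = 0.0623, and 0.00292 to 0.0623 over its 22 alternatives). Falls numbered 4 without treated library 1 and 5 without treated library 2.

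Tap1 and Psmb9 lie head to head, and both fell. The stretch between the start sites that RefSeq gives for them on GRCm38.p6 is 225 bases long. It is printed because it is all the sequence that separates the starts of these 2 genes.
Tap1 to Psmb9, chr17:34187331-34187555, plus strand: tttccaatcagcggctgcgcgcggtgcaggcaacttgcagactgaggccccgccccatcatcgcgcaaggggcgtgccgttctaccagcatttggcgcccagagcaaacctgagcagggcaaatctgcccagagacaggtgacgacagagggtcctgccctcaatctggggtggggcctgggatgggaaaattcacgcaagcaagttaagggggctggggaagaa
No motif was searched in it.

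**Figure D3:**
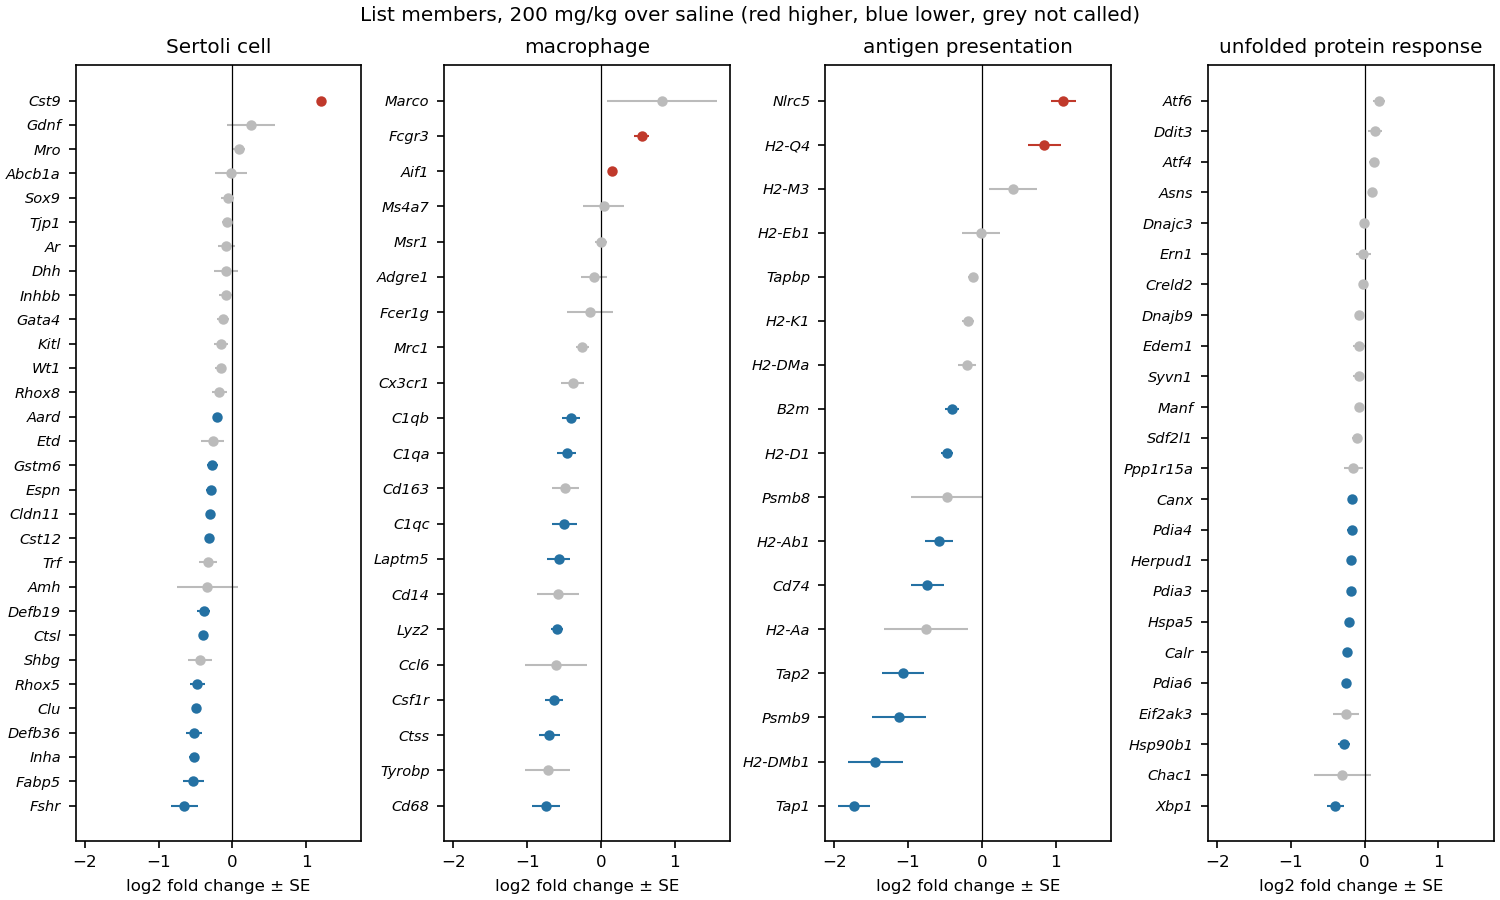
Log2 fold change with its SE (horizontal axis) of each tested member of 4 gene lists (vertical axis), 200 mg/kg over saline. Red members were called higher, blue lower and grey neither. Members are sorted by their change, and blue points outnumber red ones in all 4 panels. Cst9, Nlrc5, H2-Q4, Fcgr3 and Aif1 are the red ones.

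Lymphocyte and muscle markers, by contrast, held more rises than falls. Of 27 lymphocyte markers only 12 had enough counts to be tested, and 4 rose and 2 fell, 50% against 18.6% of all genes (median 0.51). The count filter keeps a gene that has enough counts in the libraries of a single group. Weak markers such as Cd8b1 may thus have been tested only through a group where they were high, which favours changes among those tested. This limit holds for the other lists of weak genes too. Rag1 (ENSMUSG00000061311, chr2:101638282-101649501) was at 1.53, 1.46 and 0.951 CPM with saline and 5.9, 5.57 and 6.57 CPM at 200 mg/kg, and Cd8b1 at 0.245, 0.281 and 0.535 CPM and 1.79, 1.74 and 2.02 CPM, while Cd3d of the T cell receptor complex rose 1.33-fold. The other rise was in Cd2. Crtam, an adhesion molecule of activated lymphocytes, fell 1.97-fold, from 41.2, 44.2 and 46.5 CPM to 24, 20.04 and 22.7 CPM (adjusted p = 1.61e-09), and Ptprc, which encodes the leukocyte antigen CD45, also fell. Apart from Crtam and Cd3d the tested members averaged under 3 CPM with saline, and the summed level was 62.9 to 67.4 CPM in the saline libraries and 50.7 to 58.7 CPM at 200 mg/kg, a direction opposite to the median. Cd3d lost its call without treated library 3 (adjusted p = 0.0658, and 0.000474 to 0.0658 over its 22 alternatives).

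Of 23 markers of skeletal and cardiac muscle, 12 were tested and 4 rose, 33.3% against 18.6% of all genes called: Casq1, Neb, Ttn and Ryr1. Neb, the giant thin-filament protein nebulin, was at 2.51, 1.57 and 2.08 CPM with saline and 8.9, 7.93 and 7.86 CPM at 200 mg/kg (4.02-fold, adjusted p = 3.63e-08). Ttn, which encodes titin, rose 2.17-fold (adjusted p = 1.95e-07) and the calcium release channel gene Ryr1 1.88-fold (adjusted p = 0.00011). In each of the 4 genes all treated libraries lay above all controls. The summed level of the list was 34 to 37.2 CPM in the saline libraries and 53.1 to 56.8 CPM at 200 mg/kg.

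Inflammation is named in the study's title, and the list of NF-kB signalling held calls at about the rate of all genes. Of 39 tested genes of NF-kB signalling and cytokines, 3 rose and 3 fell, a share of 15.4% against 18.6% of all genes, with a median of 0.03. Vcam1, an adhesion molecule for leukocytes, was at 124, 132 and 130.0 CPM with saline and 155, 157 and 153 CPM at 200 mg/kg (1.21-fold higher, adjusted p = 0.000192). The adaptor gene Myd88 (0.38 ± 0.096) and the kinase gene Ikbkb (0.34 ± 0.094) also rose. The receptor gene Tnfrsf1a (-0.46 ± 0.099), the inhibitor gene Nfkbia and the NF-kB subunit gene Nfkb1 (-0.29 ± 0.092, adjusted p = 0.0291) fell. Rela, the other main subunit, was at 35.9, 39.2 and 39.6 CPM and 36.3, 35.4 and 34.1 CPM and did not pass (-0.12 ± 0.070, adjusted p = 0.265). Tlr4, the endotoxin receptor, had a log2 fold change of -0.73 ± 0.39 (adjusted p = 0.217). The cytokine gene Il1b was at 1.16, 1.07 and 0.891 CPM with saline and 2.14, 1.39 and 1.46 CPM at 200 mg/kg, and did not pass (0.68 ± 0.28, adjusted p = 0.0894). Counts of Tnf, Il6, Nlrp3 and Ccl2 were 6, 0, 25 and 24 over all 12 libraries, too few to test. Myd88 lost its call without saline library 3 or treated library 3 (adjusted p = 0.0527 to 0.0555, and 0.000982 to 0.0555 over its 22 alternatives). Ikbkb lost its call without saline library 3 or treated library 3 (adjusted p = 0.058 to 0.101, and 0.000913 to 0.101 over its 22 alternatives). Nfkb1 lost its call without saline library 1, 2 or 3 or treated library 1 or 2 (adjusted p = 0.0531 to 0.142, and 0.0132 to 0.142 over its 22 alternatives). Il1b gained its call in limma voom (adjusted p = 0.0494, and 0.0494 to 0.359 over its 22 alternatives). Rises numbered 1 without saline library 3 or treated library 3, and falls 1 without saline library 1 or 3 or treated library 1.

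Of 11 tested inflammasome genes 2 were higher and 2 lower, 36.4% against 18.6% of all genes. Casp1, the protease that matures interleukin 1 beta, rose 2.48-fold, from 1.72, 1.07 and 1.13 CPM to 3.12, 3.2 and 3.37 CPM (adjusted p = 0.000175), and Gsdme, a pore-forming gasdermin, 1.57-fold (adjusted p = 0.00154). Casp8, an initiator of apoptosis, changed by -0.60 ± 0.19 and Nek7, a kinase that binds NLRP3, by -0.37 ± 0.093. In the interferon response list 1 of 20 genes, Trim25, was lower, 5% against 18.6% of all genes called. The chemokine gene Ccl8, which draws monocytes, fell 2.34-fold, from 3.00, 3.43 and 2.2 CPM to 1.85, 0.835 and 0.954 CPM (adjusted p = 0.00216). Casp8 lost its call without saline library 1, 2 or 3 or treated library 1 or 3 or in DESeq2 (adjusted p = 0.0556 to 0.171, and 0.00571 to 0.171 over its 22 alternatives). Trim25 lost its call without saline library 1, 2 or 3 or treated library 1, 2 or 3 (adjusted p = 0.0514 to 0.101, and 0.00279 to 0.101 over its 22 alternatives). The 2 inflammasome falls were 1 without saline library 1, 2 or 3 or treated library 1 or 3.

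Among antioxidant genes 12 of 46 fell and 4 rose, 34.8% against 18.6% of all genes (median -0.12). Gss (ENSMUSG00000027610, chr2:155563181-155592810), which completes the synthesis of glutathione, fell most: it was at 24.8, 21 and 25.2 CPM with saline and 9.36, 12.7 and 10.4 CPM at 200 mg/kg, without overlap (2.2-fold, adjusted p = 9.14e-09). It overlaps another gene of the table. Gstm1, a glutathione transferase of Leydig and other cells, changed by -0.31 ± 0.052 (adjusted p = 0.000144), and Srxn1, which repairs oxidised peroxiredoxins, by -0.48 ± 0.068 (adjusted p = 2.32e-05). Hmox1, the haem oxygenase that NRF2 induces, was at 11.2, 9.04 and 13.2 CPM and 6.53, 6.12 and 9.15 CPM (-0.60 ± 0.15, adjusted p = 0.00568). Nqo1, also an NRF2 target gene (-0.21 ± 0.19, adjusted p = 0.497), the superoxide dismutase gene Sod2 (-0.09 ± 0.058, adjusted p = 0.307), the peroxidase gene Gpx4 (-0.09 ± 0.067, adjusted p = 0.37) and the catalase gene Cat (-0.08 ± 0.11, adjusted p = 0.648) did not pass. The 4 rises were in Gclc, Gstt1, Txndc2 and Slc7a11. Hmox1 lost its call without saline library 3 (adjusted p = 0.0596, and 0.000212 to 0.0596 over its 22 alternatives). Gpx4 gained its call without library 3 at 100 mg/kg or without the 100 mg/kg libraries (adjusted p = 0.0208 to 0.0216, and 0.0208 to 0.701 over its 22 alternatives). Rises were fewer than 2 without saline library 2 or treated library 1, and numbered 2 without saline library 1, library 2 or 3 at 50 mg/kg, library 2 at 100 mg/kg or treated library 2 or 3.

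The unfolded protein response turns on chaperones of the endoplasmic reticulum. Of its 24 tested genes 9 fell by small amounts and the other 15 did not pass, so 37.5% were called against 18.6% of all genes. The median was -0.13. The summed level was 3945 to 4030.0 CPM in the saline libraries and 3534 to 3563 CPM at 200 mg/kg. Calr, the calcium-binding chaperone calreticulin, was at 684, 662 and 685 CPM with saline and 573, 564 and 579 CPM at 200 mg/kg, without overlap (-0.24 ± 0.036, adjusted p = 4.02e-05). The protein disulfide isomerase genes Pdia6 and Pdia3 changed by -0.25 ± 0.043 (adjusted p = 0.000212) and -0.19 ± 0.039 (adjusted p = 0.00157). Hspa5, which encodes BiP, the main chaperone of this compartment, was at 656, 659 and 662 CPM and 559, 587 and 566 CPM (-0.21 ± 0.056, adjusted p = 0.0125). Hsp90b1 changed by -0.28 ± 0.083, Canx by -0.17 ± 0.055 and the transcription factor gene Xbp1 by -0.40 ± 0.11. Hspa5 lost its call without treated library 1 or after the length correction (adjusted p = 0.0568 to 0.0832, and 6.66e-12 to 0.0832 over its 22 alternatives). Hsp90b1 lost its call without saline library 1 or 3 or treated library 1 or 2 or on library size alone or with no count filter or after the length correction (adjusted p = 0.0531 to 0.101, and 5.63e-12 to 0.101 over its 22 alternatives). Canx lost its call without saline library 1, 2 or 3, library 3 at 50 mg/kg or treated library 1, 2 or 3 or on library size alone or after the length correction (adjusted p = 0.0524 to 0.163, and 2.48e-06 to 0.163 over its 22 alternatives). Xbp1 lost its call without saline library 2 or treated library 2 or 3 (adjusted p = 0.0504 to 0.116, and 0.000946 to 0.116 over its 22 alternatives). The falls numbered 5 without treated library 1 or 2.

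Many promoters of this response carry the ER stress response element, in which CCAAT and CCACG are separated by 9 free bases. On either strand it was found in 39 of 32851 RefSeq promoters of 300 bases (0.119%), and in 8 of the 22 tested genes of the list with a promoter in that table. Of the 8 genes with the element 5 fell, Hspa5, Hsp90b1, Calr, Canx and Pdia6, and Dnajc3 (-0.00 ± 0.053), Creld2 (-0.03 ± 0.047) and Syvn1 (-0.08 ± 0.072) did not pass. Of the 14 genes without it 4 fell, where 8.3% of all genes tested did. For the 5 genes with the element that fell, the 200 bases before the start site are printed from RefSeq on GRCm38.p6. They are on the strand of the gene, with the element in capitals. These 5 were chosen because they fell, and the promoters of Dnajc3, Creld2 and Syvn1, which also carry the element, are not printed. In Hsp90b1 and Calr the capitals show the element on the opposite strand. Hsp90b1 had 2 elements in the 300 bases searched, of which 1 lies within the 200 bases printed.
Hspa5 promoter, chr2:34771890-34772089, plus strand: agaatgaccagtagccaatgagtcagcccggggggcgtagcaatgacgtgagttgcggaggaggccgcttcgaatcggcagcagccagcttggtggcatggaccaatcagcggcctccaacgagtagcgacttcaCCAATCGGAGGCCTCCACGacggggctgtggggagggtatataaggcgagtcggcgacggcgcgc
Hsp90b1 promoter, chr10:86705445-86705644, minus strand: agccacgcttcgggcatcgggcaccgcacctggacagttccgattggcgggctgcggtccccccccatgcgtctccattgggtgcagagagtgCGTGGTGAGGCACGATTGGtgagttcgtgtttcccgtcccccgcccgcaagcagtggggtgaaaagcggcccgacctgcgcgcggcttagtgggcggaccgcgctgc
Calr promoter, chr8:84846932-84847131, minus strand: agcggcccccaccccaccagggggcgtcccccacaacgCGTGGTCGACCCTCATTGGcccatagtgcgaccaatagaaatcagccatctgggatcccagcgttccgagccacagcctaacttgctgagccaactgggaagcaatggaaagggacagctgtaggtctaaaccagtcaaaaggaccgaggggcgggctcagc
Canx promoter, chr11:50325674-50325873, minus strand: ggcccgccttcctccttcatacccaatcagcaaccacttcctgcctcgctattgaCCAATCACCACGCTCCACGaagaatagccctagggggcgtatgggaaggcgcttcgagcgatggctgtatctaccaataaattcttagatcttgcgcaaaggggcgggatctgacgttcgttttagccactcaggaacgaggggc
Pdia6 promoter, chr12:17266389-17266588, plus strand: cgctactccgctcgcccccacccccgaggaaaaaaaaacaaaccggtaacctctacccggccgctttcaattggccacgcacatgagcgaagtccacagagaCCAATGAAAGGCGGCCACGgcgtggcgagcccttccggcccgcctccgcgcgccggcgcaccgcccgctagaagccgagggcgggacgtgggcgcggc
A match describes these letters only and was not tied to the change in level by any test.

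Of 32 heat shock and chaperone genes, which share Hspa5 and Hsp90b1 with that list, 7 fell and 1, Hspb8, rose (median -0.07). These calls were 25% of the list, against 18.6% of all genes. The falls then numbered 2 without treated library 1, 3 without saline library 1 or 3 or treated library 2, 4 without saline library 2 or treated library 3 and 15 without library 3 at 100 mg/kg.

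Genes of mitochondria and of protein synthesis held mostly falls, and these were small. Of 12 genes encoded in mitochondrial DNA 8 fell, 66.7% against 18.6% of all genes called (median -0.27). The complex I subunit mt-Nd5 was at 1106, 1015 and 980.0 CPM with saline and 744, 702 and 737 CPM at 200 mg/kg, without overlap (1.42-fold lower, adjusted p = 5.91e-08), and mt-Nd1 changed by -0.33 ± 0.063 (adjusted p = 0.00125). The count of falls was 4 without treated library 2 and 5 without saline library 1 or treated library 3. Of 79 nuclear genes of oxidative phosphorylation 15 fell and 1 rose, 20.3% against 18.6% of all genes (median -0.12). Cycs, the electron carrier cytochrome c, changed by -0.34 ± 0.066 (adjusted p = 0.000653) and Ndufb10 of complex I by -0.27 ± 0.064 (adjusted p = 0.00431). The rise was in Atp5e, a subunit of ATP synthase with close copies, from 19.97, 24.5 and 22.5 CPM to 39.2, 33.1 and 35.9 CPM (adjusted p = 0.00063). The count of falls in the nuclear list was 4 without saline library 2, 6 without saline library 3 or treated library 2, 7 without treated library 3, 9 without library 3 at 50 mg/kg and 29 without library 3 at 100 mg/kg, and 9 on library size alone.

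Of 83 cytosolic ribosomal protein genes 23 fell and 2, Rps2 and Rps24, rose, 30.1% against 18.6% of all genes, with a median of -0.14. Beside Rpl26, Rpl35a fell 1.99-fold, from 46.3, 52.5 and 52.7 CPM to 25.3, 26.1 and 24.8 CPM (adjusted p = 8.93e-10), and Rpsa changed by -0.41 ± 0.057 (adjusted p = 1.57e-05). Rps2 rose 1.88-fold, from 54.8, 52.5 and 55.9 CPM to 99.8, 107 and 99.2 CPM (adjusted p = 3.62e-10), against the direction of its list. Ribosomal protein genes have many near-identical copies, which makes single members uncertain. The summed level of the ribosomal list was 11058 to 11278 CPM in the saline libraries and 9800.2 to 10225 CPM at 200 mg/kg. Falls numbered 15 without saline library 3 or treated library 2 and 40 without library 3 at 100 mg/kg. Of 35 proteasome genes, 8 fell, Psmb9 among them, and 1, Psma8, which germ cells use in meiosis, rose, 25.7% against 18.6% of all genes. The falls numbered 3 without saline library 3 or treated library 2, 5 without saline library 1 or 2 or treated library 3 and 16 without library 3 at 100 mg/kg, and 5 on library size alone.

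**Figure D4:**
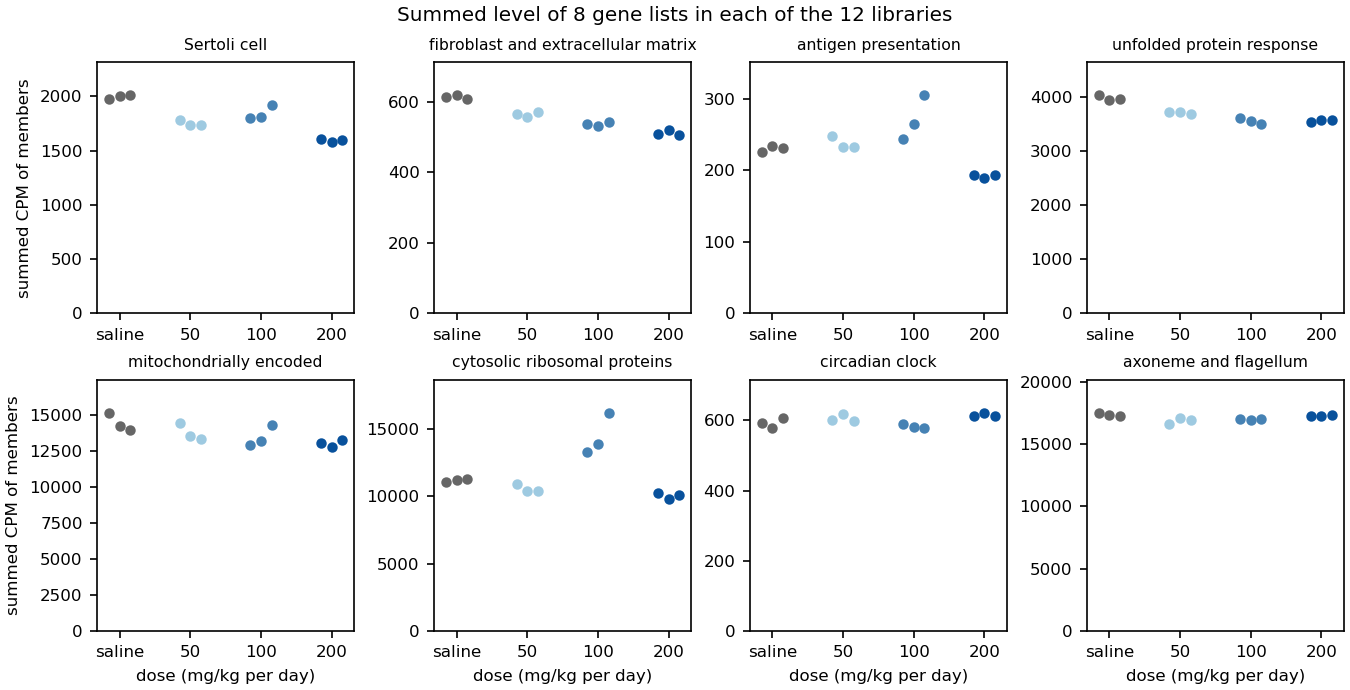
Summed CPM of the tested members of 8 gene lists (vertical axis) in each of the 12 libraries (points), by dose in mg/kg per day (horizontal axis). The 3 libraries at 200 mg/kg lie below the 3 saline libraries for Sertoli cell, fibroblast, antigen presentation, unfolded protein response, mitochondrial and ribosomal genes, above them for circadian clock genes, and overlap them for axoneme genes.

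Germ cell genes held calls in both directions. Of 39 meiosis genes 5 rose and 5 fell, 25.6% against 18.6% of all genes (median 0.01). Spo11 (ENSMUSG00000005883, chr2:172977700-172993576), the enzyme that makes the DNA breaks of meiotic recombination, was at 29.3, 31.3 and 32.6 CPM with saline and 57.6, 65 and 59.3 CPM at 200 mg/kg (1.95-fold, adjusted p = 1.18e-10). Dmc1, Mlh3, Msh4 and Mael were the other rises. The falls were in the chromosome axis and synapsis genes Sycp1, Sycp2 (-0.25 ± 0.070), Sycp3 (-0.46 ± 0.058), Hormad1 (-0.38 ± 0.047) and the cohesin gene Smc1b (-0.39 ± 0.059), with adjusted p-values from 1.68e-09 for Sycp1 to 0.0155 for Sycp2. Sycp3 was at 90.1, 90.0 and 89.3 CPM in the controls and 67.9, 62.4 and 65.2 CPM in the treated libraries, without overlap, and overlaps another gene of the table. Sycp2 lost its call without saline library 1 or treated library 1 or 3 (adjusted p = 0.051 to 0.0714, and 3.63e-12 to 0.0714 over its 22 alternatives). Mael lost its call without saline library 3 (adjusted p = 0.0555, and 1.17e-06 to 0.0555 over its 22 alternatives). The count of rises in the list was 2 without saline library 2 or 3 or treated library 3 and 3 without treated library 1, and that of falls 10 without library 3 at 100 mg/kg. Of 20 genes of pachytene spermatocytes, 5 fell and 3 rose, 40% against 18.6% of all genes. Among the falls were the kinase genes Plk1 (-0.33 ± 0.057, adjusted p = 0.000208) and Aurkc (-0.43 ± 0.086, adjusted p = 0.000951). In the list for spermatogonia 3 of 23 genes fell, 13% against 18.6% of all genes called: Tex101 (-0.30 ± 0.052), Etv5 and Ccnd2. Tex101 is also made by later germ cells, so its fall cannot be credited to spermatogonia. Etv5 lost its call without saline library 1 or 2 or treated library 2 (adjusted p = 0.0584 to 0.0765, and 0.000118 to 0.0765 over its 22 alternatives). Ccnd2 lost its call without saline library 1 or 3, library 2 or 3 at 50 mg/kg or treated library 1, 2 or 3 or on library size alone or in DESeq2 or with the replicate block or after the length correction (adjusted p = 0.0532 to 0.284, and 0.0115 to 0.284 over its 22 alternatives). In spermatogonia falls numbered 1 without saline library 1 and 5 without library 3 at 100 mg/kg. In pachytene spermatocytes they numbered 3 without saline library 3 or treated library 3, and at most 1 gene rose when any saline or treated library was left out and 6 rose without library 3 at 100 mg/kg.

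The beating of the sperm tail sets motility. Of 58 genes of the axoneme, the motor core of the flagellum, 5 rose and 5 fell, 17.2% against 18.6% of all genes, and the median was 0.0029. The summed level was 17253 to 17519.8 CPM in the saline libraries and 17237 to 17299 CPM at 200 mg/kg, which overlapped. Cfap100 (0.39 ± 0.065), Cfap46 (0.28 ± 0.059) and the dynein genes Dnah11 (0.95 ± 0.21), Dnah7b and Dnal1 were higher, and Cfap52 (-0.24 ± 0.046), Cfap53, Cfap61, Tekt3 and Tekt4 were lower. Cfap100 and Dnah11 overlap other genes of the table. Dnah1, a dynein of the flagellum, was at 172, 183 and 176 CPM and 173, 181 and 174 CPM and did not pass (-0.01 ± 0.046, adjusted p = 0.92). In the list for the fibrous sheath and outer dense fibres, which stiffen the tail, 4 of 24 genes fell, 16.7% against 18.6% of all genes called. These were Cylc1 (-0.28 ± 0.051), Cylc2 (-0.19 ± 0.045), Gapdhs and Gstm5. Cylc1 and Cylc2 encode cylicins of the sperm head, so their falls are not falls of tail genes. The median of this list was -0.05, and its summed level was 19521 to 19896 CPM in the saline libraries and 18688 to 18948 CPM at 200 mg/kg, lower without overlap. Akap4, the main sheath protein, did not pass (-0.06 ± 0.036, adjusted p = 0.228). The count of rises in the axoneme list was 3 without saline library 2 or 3 or treated library 1, 2 or 3, 8 without library 1 at 100 mg/kg and 11 without library 3 at 100 mg/kg, and that of falls 3 without treated library 1 and 8 without library 3 at 100 mg/kg. The count of falls in the sheath list was 2 without saline library 1, 2 or 3 or treated library 2 and 9 without library 3 at 100 mg/kg. Akap4 gained its call without library 3 at 100 mg/kg or in limma voom or in the fit of these 2 groups alone or without the 100 mg/kg libraries or after the length correction (adjusted p = 0.00779 to 0.0489, and 0.00779 to 0.468 over its 22 alternatives). Gstm5 lost its call without saline library 1, 2 or 3 or treated library 1, 2 or 3 (adjusted p = 0.0585 to 0.103, and 1.4e-09 to 0.103 over its 22 alternatives).

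The CatSper channel lets calcium into the tail when sperm become hyperactive. In its list of 27 genes 5 rose and 2 fell, 25.9% against 18.6% of all genes (median 0.05). The accessory subunit gene Catspere2 was at 30.2, 30.8 and 26.9 CPM with saline and 54.9, 62.4 and 55.2 CPM at 200 mg/kg (1.96-fold, adjusted p = 3.73e-10), and its copy Catspere1 rose 1.35-fold (adjusted p = 9.59e-05). Catsperd, Catsperg1 and Pde10a were the other rises, and Prkaca (-0.17 ± 0.048) and C2cd6 the falls. Catsper1, which forms the pore, was at 149, 143 and 145 CPM and 142, 137 and 148 CPM and did not pass (-0.03 ± 0.046, adjusted p = 0.691). Catsperd lost its call without saline library 3 or treated library 2 (adjusted p = 0.0786 to 0.0893, and 0.000204 to 0.0893 over its 22 alternatives). Prkaca lost its call without saline library 2 (adjusted p = 0.0562, and 4.77e-05 to 0.0562 over its 22 alternatives). Rises numbered 2 without saline library 3 or treated library 2, 3 without saline library 1 or 2, library 2 or 3 at 50 mg/kg, library 2 at 100 mg/kg or treated library 1 or 3 and 9 without library 3 at 100 mg/kg, while at most 1 gene fell without any 1 saline or treated library and 5 fell without library 3 at 100 mg/kg.

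Of 38 genes of the acrosome and of fertilisation 6 rose and 2 fell, 21.1% against 18.6% of all genes. Spaca6, needed for sperm to fuse with the egg, rose 1.38-fold, from 22.2, 24.7 and 24.4 CPM to 34.9, 30.5 and 33.1 CPM (adjusted p = 6.39e-05), and Tmem95, needed for the same step, fell 1.39-fold, from 23.4, 24.9 and 22.2 CPM to 16.6, 17.8 and 16.2 CPM (adjusted p = 0.000155). The protease gene Acr was the other fall. Rises numbered 2 without saline library 1, 2 or 3 or treated library 1 or 3 and 3 without library 2 or 3 at 50 mg/kg or treated library 2, and 6 genes fell without library 3 at 100 mg/kg. Of 26 genes of glycolysis, which fuels the tail, with Aldoa counted under 2 gene IDs, 4 fell and 2 rose, 23.1% against 18.6% of all genes. Eno1 (-0.28 ± 0.048), Gapdhs (-0.18 ± 0.054, adjusted p = 0.0234), Tpi1 and Pgam2 were lower, and the sperm enolase gene Eno4 (0.44 ± 0.057) and the lactate carrier gene Slc16a7 higher. Ldhc did not pass (0.03 ± 0.036, adjusted p = 0.574), and Eno4 overlaps another gene of the table. Of 25 genes of elongated spermatids and the protamine transition 3 fell and 1 rose, 16% against 18.6% of all genes. Prm1 (-0.13 ± 0.084, adjusted p = 0.34) and Tnp1 (0.23 ± 0.16, adjusted p = 0.367) did not pass. Gapdhs lost its call without saline library 1, 2 or 3 or treated library 2 (adjusted p = 0.0552 to 0.157, and 1.94e-06 to 0.157 over its 22 alternatives). Tpi1 lost its call without saline library 3 or treated library 1 or 3 (adjusted p = 0.0553 to 0.0671, and 3.18e-07 to 0.0671 over its 22 alternatives). Slc16a7 lost its call without saline library 3 or treated library 1 (adjusted p = 0.0542 to 0.0641, and 1.11e-08 to 0.0641 over its 22 alternatives). In the protamine list at most 1 gene fell without saline library 1, 2 or 3 or treated library 1 or 2, and 8 fell without library 3 at 100 mg/kg. The count of falls in glycolysis was 1 without saline library 3, 2 without saline library 2 or treated library 1 or 3 and 9 without library 3 at 100 mg/kg.

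Circadian clock genes held more rises than falls. Of 22 tested, 6 rose and 1 fell, 31.8% against 18.6% of all genes, with a median of 0.18. Per1, a repressor of the clock, was at 75.5, 74.8 and 82.1 CPM with saline and 101, 94.8 and 95 CPM at 200 mg/kg, without overlap (1.25-fold, adjusted p = 7.31e-05), and the nuclear receptor gene Rora rose 1.26-fold (adjusted p = 0.000613). Tef (0.28 ± 0.068), Per2 (0.52 ± 0.17), Per3 and the activator gene Npas2 (0.90 ± 0.28) also rose, and the clock kinase gene Csnk1d fell (-0.17 ± 0.043). The summed level was 579.9 to 608 CPM in the saline libraries and 612 to 623 CPM at 200 mg/kg. Per2 lost its call without saline library 1 or 3 or treated library 1, 2 or 3 or in DESeq2 (adjusted p = 0.0556 to 0.16, and 0.0152 to 0.16 over its 22 alternatives). Npas2 lost its call without saline library 1, 2 or 3 or treated library 2 or 3 (adjusted p = 0.0542 to 0.184, and 0.00742 to 0.184 over its 22 alternatives).

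Of 22 immediate early genes, which respond within minutes to stimuli and to tissue handling, 5 fell and 1 rose, 27.3% against 18.6% of all genes. Egr3 rose 2.11-fold, from 6.31, 4.16 and 5.64 CPM to 10.9, 11.8 and 11.2 CPM (adjusted p = 3.91e-06), while Fosl2 fell 1.78-fold (adjusted p = 0.00154) and Arc changed by -0.25 ± 0.046 (adjusted p = 0.000472). The other falls were in Egr1, Klf2 and Klf6. Of 20 genes of sirtuins and the energy sensor AMPK 3 rose, 15% against 18.6% of all genes called: the deacetylase gene Sirt2 (0.20 ± 0.056, adjusted p = 0.0142), Prkab2 and Prkag2. Sirt1 was at 49.1, 53.1 and 51.7 CPM and 52.5, 61.6 and 50.3 CPM and did not pass (0.09 ± 0.067, adjusted p = 0.383). Of 33 genes of senescence, p53 and apoptosis 2 fell, Cdkn1b among them, 6.06% against 18.6% of all genes called. The cell cycle inhibitor gene Cdkn1a did not pass (-0.05 ± 0.13, adjusted p = 0.848). Of 32 autophagy genes 2 fell, 6.25% against 18.6% of all genes. In the piRNA pathway, which silences transposons in germ cells, 3 of 26 genes rose and 1 fell, a share of 15.4%, near that of all genes. Sirt2 lost its call without saline library 1 or treated library 1 (adjusted p = 0.075 to 0.0917, and 3.97e-06 to 0.0917 over its 22 alternatives). Among immediate early genes falls numbered 2 without saline library 2 or treated library 2 or 3 and 3 without saline library 3. Klf2 lost its call without saline library 2 or 3 or treated library 2 or 3 (adjusted p = 0.0614 to 0.111, and 0.00248 to 0.111 over its 22 alternatives). Prkab2 lost its call without saline library 2 or 3 or treated library 1 or 3 (adjusted p = 0.0582 to 0.098, and 0.000311 to 0.098 over its 22 alternatives). Prkag2 lost its call without saline library 1, 2 or 3, library 2 or 3 at 50 mg/kg or treated library 1 or 3 or with no count filter or in DESeq2 or with the replicate block (adjusted p = 0.0503 to 0.142, and 0.000364 to 0.142 over its 22 alternatives). At most 1 sirtuin or AMPK gene rose without saline library 1, 2 or 3 or treated library 1 or 3. In the piRNA list rises numbered 1 without saline library 3, and in autophagy 9 genes fell without library 3 at 100 mg/kg.

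**Figure D5:**
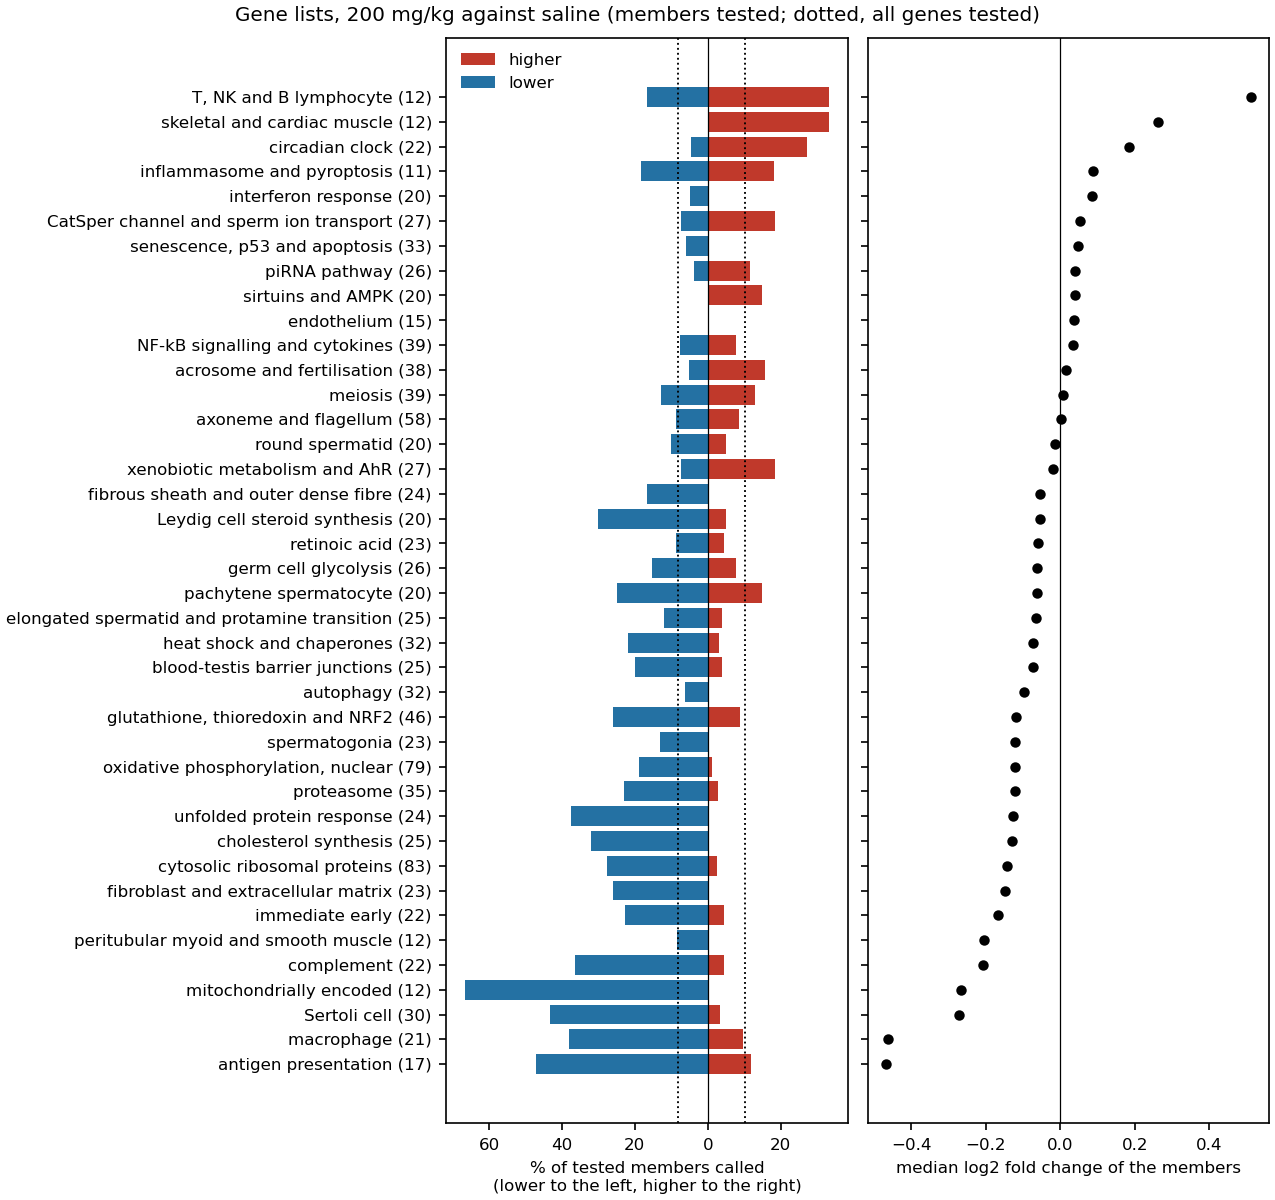
Share of tested members called higher (red, to the right) and lower (blue, to the left) in each gene list with at least 10 tested members (left panel, percent), with dotted lines at the shares over all genes tested, 10.3% and 8.3%, and the median log2 fold change of the members (right panel). The number tested is in brackets. Antigen presentation, macrophage, Sertoli cell and mitochondrially encoded genes stand at the low end, and lymphocyte, muscle and circadian clock genes at the high end.

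Set directly against the other doses, fewer genes separated 200 from 50 mg/kg than from 100 mg/kg. Between 200 and 50 mg/kg 792 genes (5.05%) were called, 398 higher (2.54%) and 394 lower (2.51%) at 200 mg/kg. Between 200 and 100 mg/kg 8312 genes (53%) were called, 4356 higher (27.8%) and 3956 lower (25.2%). Without library 3 at 100 mg/kg, which stood apart from its group, 7495 were called. The gene length correction gave 7830, of which 6711 were among the 8312. Why the 100 mg/kg group differed more was not tested. Leaving out 1 library took the count against 50 mg/kg to between 460 and 1683, the highest without 100 mg/kg library 3, and it was 1700 without the 100 mg/kg libraries. Only 106 genes (0.676%) were higher at 200 mg/kg than in each of the other 3 groups, and 124 (0.791%) were lower.

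Rpl26 led the genes lowest at 200 mg/kg: it stood at 77.2, 79.7 and 76.5 CPM at 50 mg/kg and 243, 258 and 293 CPM at 100 mg/kg, so that the 4 groups did not overlap and the 2 doses below 200 mg/kg lay on opposite sides of saline. Against 50 mg/kg it was 7.14-fold lower at 200 mg/kg (adjusted p = 1.59e-18) and against 100 mg/kg 24.3-fold lower (adjusted p = 1.94e-23). Galntl6 was at 17.5, 17.3 and 14.8 CPM at 50 mg/kg and 38.6, 40.9 and 36.9 CPM at 100 mg/kg, above the controls at both. Gss stood near the saline level at both lower doses, 21.8, 22.8 and 22.4 CPM and 20.8, 22.2 and 21.8 CPM, and was lower at 200 mg/kg than at either (adjusted p = 9.06e-08 and 1.55e-08). Zfp984 and Ccl8 completed the 5 falls ranked by the smallest of their 3 differences. In the other direction Ceacam10 was at 1.47, 1.18 and 1.24 CPM and 1.9, 3.32 and 2.97 CPM at the lower doses, against 7.8, 6.75 and 7.58 CPM at 200 mg/kg (adjusted p = 1.36e-08 and 5.46e-07). Zfp981 was at 0.32, 0.371 and 0.259 CPM and 1.19, 1.63 and 1.11 CPM at the 2 lower doses. Zfp991, Akap2 and Tmprss11a, a membrane serine protease gene that rose 3.05-fold over saline, were the others.

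Some changes at 200 mg/kg were not those of the highest dose alone. Summed levels of the Sertoli cell and unfolded protein response lists lay below saline at every dose, and those of the muscle list above it. Ribosomal protein sums were below saline at 50 mg/kg (10389 to 10922 CPM) and above it at 100 mg/kg (13318 to 16246 CPM). Ibsp stood at 34.6, 26.9 and 33.8 CPM at 50 mg/kg, above its level at 200 mg/kg (adjusted p = 1.35e-05), and at 9.97, 11.2 and 10.8 CPM at 100 mg/kg, below it (adjusted p = 7.5e-07). Rag1 was highest at 100 mg/kg, with 12.5, 13.3 and 13.7 CPM. Cst9 stood at 81.2, 79 and 74.6 CPM at 50 mg/kg, which did not differ from 200 mg/kg by the test (-0.10 ± 0.057, adjusted p = 0.38), and near the saline level at 100 mg/kg. Tap1 was low at 50 mg/kg (1.28, 1.55 and 1.35 CPM) and above the controls at 100 mg/kg (10.1, 9.02 and 11.1 CPM). Pga5 was near the saline level at 50 mg/kg (34.7, 32.8 and 36.3 CPM) and almost absent at 100 mg/kg (0.178, 0.527 and 0.247 CPM). In the Sertoli cell list, 6 of 30 genes were lower at 200 than at 50 mg/kg, and in antigen presentation 8 of 17 were lower and 1 higher, against 2.51% and 2.54% of all genes. Clu at 50 mg/kg stood at 683, 635 and 644 CPM, between saline and 200 mg/kg (-0.16 ± 0.043 for 200 against 50 mg/kg, adjusted p = 0.0273). Lyz2 was lower at 200 than at 50 mg/kg (-0.41 ± 0.082, adjusted p = 0.00217) and Cd74 was 3.49-fold lower (adjusted p = 1.13e-06).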

How the data were processed

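Per the labels' protocols, testis RNA was extracted with Trizol and sequenced as stranded polyA libraries made with a TruSeq kit. The authors deposited 1 table of counts per gene for 12 libraries. Trimmomatic, STAR, featureCounts and DESeq2, with the builds mm10 and GRCm38, appear in the submitters' processing notes, while versions, annotation and strand setting are not stated there. Libraries were grouped by title.

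From the deposited counts, edgeR 4.0.16 in R 4.3.3 kept 15682 of 21959 genes (filterByExpr by group), scaled libraries by TMM and fitted 1 mean per group over all 12 libraries with robust quasi-likelihood dispersions (8 residual degrees of freedom). Contrasts were tested by the quasi-likelihood F test with Benjamini-Hochberg adjustment, a gene being called at an adjusted p under 0.05. Log2 fold changes are given with their standard error. Annotation was matched by gene ID to GENCODE on GRCm38 (21902 of 21959 IDs), and promoters come from RefSeq. Total counts bound precision. The script was tested before use on simulated data in which 50 genes changed at each of several sizes. It recovered 28% of the 1.2-fold and 70% of the 1.5-fold changes. A gene that did not pass may therefore still have changed by a small amount.

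The members and gene lists were chosen with earlier results of these data known. Genes named were, from genes averaging at least 1 CPM with a curated symbol, the 15 largest non-overlapping rises and falls, 2 to 4 members of each list with the smallest p, 28 genes set in advance, 5 rises and 5 falls that passed the same way against each of the 3 other groups, and the 5 largest rises and falls at 100 CPM or more. Any other named gene was chosen after its values were seen. Some genes that meet the rule are not reported here. Results were recomputed under up to 22 alternatives: RLE factors, library size alone, no count filter, a 1 CPM filter, DESeq2 1.42.0, limma voom (limma 3.58.1), the 2 groups alone, no 100 mg/kg libraries, a replicate block, a gene length correction and each library left out. Libraries of saline and 200 mg/kg that share a replicate number had correlations of 0.00609, -0.0111 and -0.00263 in their deviations from the group means. No pairing by number was seen, though one that acts on few genes could go unseen.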

Additional observations from a re-analysis of the deposited data

How the results depend on the processing

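The count of genes called between 200 mg/kg and saline was 2914, against 2498 in DESeq2, 4490 in a fit of the 2 groups alone, 4314 in limma voom, 4182 when the 100 mg/kg group was dropped and 3045 with the length correction. Leaving out 1 library gave 1935 to 4178 for this comparison, 301 to 372 for changes of at least 2-fold (main value 350), 460 to 1683 against 50 mg/kg (792) and 7464 to 8332 against 100 mg/kg (8312). Against 50 mg/kg the count was 1640 in limma voom, 1576 in the fit of 2 groups alone and 1700 without the 100 mg/kg libraries, and the cause was not tested. The replicate block, although no pairing by number was seen, gave 2718, 339, 693 and 8182 calls for these 4 counts. Over all results and alternatives 6064 values kept their call status or, for list medians and counts, stayed within a set margin. Genes uncalled in both fits were among these even where their sign changed, as for Adgre1 (log2 fold change -0.242 to 0.012). A further 262 values lost a call, 71 gained one, 90 moved and no called value changed sign. Medians of 12 of the 44 gene lists, none more than 0.0873 from 0, changed sign under at least 1 alternative. On library size alone 63.2% of calls were higher, a shift of 7.87 percentage points. How depth limits the calls was not tested.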

Other observations

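In the xenobiotic list, genes that detoxify foreign compounds, 5 of 27 rose and 2 fell, 25.9% against 18.6% of all genes, and the rises included Ugt1a6a, a glucuronosyltransferase, from 0.49, 0.674 and 0.238 CPM to 1.33, 1.25 and 1.46 CPM (2.84-fold, adjusted p = 0.0106). Of 25 genes of the blood-testis barrier junctions 5 fell and 1, the cadherin gene Cdh2, rose (0.31 ± 0.064, adjusted p = 0.00123), 24% against 18.6% of all genes. Falls there numbered 2 without treated library 1, 3 without saline library 2 or 3 or treated library 3 and 8 without library 3 at 100 mg/kg, and rises in the xenobiotic list 3 without saline library 3. Of 8 tested adipocyte markers the fatty acid carrier gene Fabp4 rose 2.3-fold, from 0.613, 0.843 and 0.535 CPM to 1.16, 2.02 and 1.52 CPM (adjusted p = 0.0126), and Cidea fell. These calls were 25% of the markers, against 18.6% of all genes. Of 7 tested markers of epididymis and accessory glands Cst8 rose 1.45-fold (adjusted p = 3.61e-08) and Aqp9 also rose, while Svs5 and Wfdc10 fell, 57.1% against 18.6% of all genes. Fabp4 lost its call without saline library 3 or treated library 2 (adjusted p = 0.0618 to 0.0703, and 0.00461 to 0.0703 over its 22 alternatives). Cidea lost its call without saline library 2 or treated library 2 (adjusted p = 0.0585 to 0.0807, and 0.00616 to 0.0807 over its 22 alternatives). Aqp9 lost its call without saline library 1, 2 or 3, library 2 or 3 at 50 mg/kg or treated library 1, 2 or 3 or with no count filter or in DESeq2 or with the replicate block (adjusted p = 0.0514 to 0.148, and 0.00284 to 0.148 over its 22 alternatives). Wfdc10 lost its call without saline library 2 or 3, library 1, 2 or 3 at 50 mg/kg or treated library 1, 2 or 3 or on library size alone or with the replicate block (adjusted p = 0.0503 to 0.179, and 0.00296 to 0.179 over its 22 alternatives).

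Genes that changed at least 2-fold were mostly weakly expressed in both directions. The median level was 1.94 CPM at 200 mg/kg for those that rose and 1.73 CPM with saline for those that fell, against a saline median of 14.99 CPM over all genes, and 31 of the 279 rises and 11 of the 71 falls reached 10 CPM. Predicted-gene or Rik names made up 15.8% of the rises and 11.3% of the falls, against 5.78% of all genes tested. Olfactory or vomeronasal receptors made up 6.81% and 4.23%, against 0.561%, and zinc finger names 1.79% and 4.23%, against 2.26%. These shares were not matched for level, and a weak gene can be tested only through the group where it is high. They therefore cannot be read as a trait of these families. In equal windows along the genome, read against 2.23% of all genes with a called 2-fold change, chromosome 4 from 145000001 to 150000000 held 6 called 2-fold changes among 53 genes tested, all in zinc finger genes (Zfp980, Zfp981, Zfp982, Zfp984, Zfp991 and Zfp993). Chromosome 17 from 30000001 to 35000000 held 9 among 109, among them Tap1, Tap2, Psmb9 and H2-DMb1. On chromosome 5 the window from 10000001 to 15000000 held 5 such changes among 19 genes, and that from 100000001 to 105000000 held 5 among 31, including Ibsp and Zfp951. All these windows were picked from these same data for holding many such changes, so their high shares were built in. Others ranked as high, such as chromosome 17 from 20000001 to 25000000 (7 among 86) and chromosome 2 from 155000001 to 160000000 (6 among 62).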
